A study of Homo sapiens with 8 samples.

Results

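The NRF2 antioxidant genes were followed by RNA-seq in the side population (SP) and the non-side population (NSP) of J82, a human cell line derived from a bladder cancer. The set held 10 of the 57820 genes in the count table. It comprised NFE2L2, KEAP1, 6 NRF2 target genes (NQO1, HMOX1, GCLC, GCLM, TXNRD1 and SRXN1), SQSTM1, and MRNIP, a gene that lies on the other strand at the end of SQSTM1. The genes were chosen by name after removing the version from each Ensembl identifier, and all 10 were found.

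NRF2, the protein made from NFE2L2, is a transcription factor that switches on genes against oxidants and electrophiles. KEAP1 holds NRF2 in the cytoplasm and hands it to a CUL3 ubiquitin ligase for degradation, until electrophiles modify the cysteines of KEAP1. p62, the product of SQSTM1, is a receptor of selective autophagy that can bind KEAP1 and take it to the lysosome, and SQSTM1 is itself an NRF2 target. In tumours this pathway is known for protecting cells from oxidative damage and from drugs, cisplatin among them.

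J82 cells were grown in DMEM with serum, and the labels name no drug or genetic change for either group. Cells were stained with a Hoechst DNA dye and sorted by flow cytometry into 4 SP and 4 NSP samples, numbered 1 to 4 in each group. SP cells keep little of the dye, and NSP cells are the remainder. The labels do not say whether samples of one group came from separate cultures or sorts, so the p-values measure only the spread between these samples. SP libraries held between 1431823 and 1697218 counts, and NSP libraries between 1489033 and 2073526. These are counts assigned to genes, and they lie far below the raw read depth that the paper states per sample. The reason for this gap was not tested. ABCB1, the efflux pump that can export the dye, was higher in SP cells by 2.96 on the log2 scale (SE 0.39, adjusted p = 0.000744 by edgeR), and its counts of 35 to 57 in SP and 3 to 13 in NSP libraries did not overlap. ABCG2, the other marker listed for side populations, had 14 counts in all and could not be tested. Among the epithelial markers KRT8 and KRT18 were well counted in every library. KRT7, KRT19 and UPK2 were tested as well, with 6229, 418 and 253 counts. KRT5, KRT20, UPK3A and TP63 each had at most 1 count over the 8 libraries. The remaining epithelial markers also had too few counts to be tested, CDH1 with 24 and EPCAM with 3 among them. The leukocyte genes PTPRC, CD3E and NKG7 had no count in any library. CD14, also a leukocyte marker, had 71 to 118 counts in the SP and 19 to 81 in the NSP libraries.

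SQSTM1 and MRNIP face each other at the end of the long arm of chromosome 5. In the GENCODE annotation on GRCh37, SQSTM1 (ENSG00000161011.15) runs from 179233398 to 179265078 on the plus strand. MRNIP (ENSG00000161010.10) runs from 179262133 to 179289173 on the minus strand. Their exons cross over 1582 bases, all of them in the last exon of SQSTM1, in a stretch of 769 bases (chr5:179263436-179264204) and one of 813 bases (chr5:179264266-179265078). A read from these bases belongs to one gene or the other only through its strand. The bases below show why. They are the last 30 coding bases of SQSTM1 before its stop codon (chr5:179263561-179263590, GRCh37), and the same bases read on the other strand lie inside an exon of MRNIP.
SQSTM1 strand, 5′ to 3′: atccagtattcaaagcatcccccgccgttg
MRNIP strand, 5′ to 3′: caacggcgggggatgctttgaatactggat

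NRF2 acts with small MAF proteins at the antioxidant response element, whose core is TGACNNNGC. RefSeq promoter windows of 300 bases, most of them before the start site (GRCh38.p14), were at hand for 9 of the 10 genes, all except HMOX1. Of their 14 promoters 4 held the core on either strand, in 3 genes, against 13.3% of 35116 promoters. The matches are shown with 30 bases each, with the core in capitals. The distance given is that of the core's base farthest upstream of the start site. For a core on the strand opposite to its gene this is the last capital.
GCLM, chr1:93909446-93909475, plus strand, -34: tggaagacaaTGACTAAGCagaaatcgtag
KEAP1, chr19:10502806-10502835, minus strand, -54: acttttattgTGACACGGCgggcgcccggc
KEAP1, chr19:10502784-10502813, plus strand, -31: caggtcaccaTGACTAAGCagagccgggcg
TXNRD1, chr12:104215670-104215699, plus strand, -99: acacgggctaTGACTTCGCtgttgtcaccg
TXNRD1, chr12:104215760-104215789, minus strand, -8: ctgtgggaacTGACGGAGCcgaaggacgcc
TXNRD1, second promoter, chr12:104286919-104286948, minus strand, -102: agagtcagaaTGACAAAGCagaaatccact
The core of AP-1 sites, TGAGTCA, which can overlap the antioxidant element, was in none of the 14 promoters and in 4.95% of all. A match is a run of letters and not a bound site.

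All 10 genes had enough counts to be tested among 9309 genes, and none was called between SP and NSP cells. A call needed an adjusted p under 0.05 in edgeR and a fold change over 1.3. Of all genes tested, 1.63% were called higher in SP cells, 2.03% lower and 3.66% in either direction. In this fit on group alone, none of the 10 had an unadjusted p under 0.05, against 1527 of the 9309 genes, and the smallest was 0.130. DESeq2 and limma voom called none of them either. Expression is given below as CPM, the count relative to the TMM-normalized library size, on 1 scale for all libraries. The SP and NSP ranges overlapped for all 10 genes. They did not overlap for 9.75% of the genes tested, a share at which a set of 10 can easily hold no such gene. These are bulk libraries, in which fewer cells that express a gene and less of its RNA per cell cannot be told apart.

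**Figure D1:**
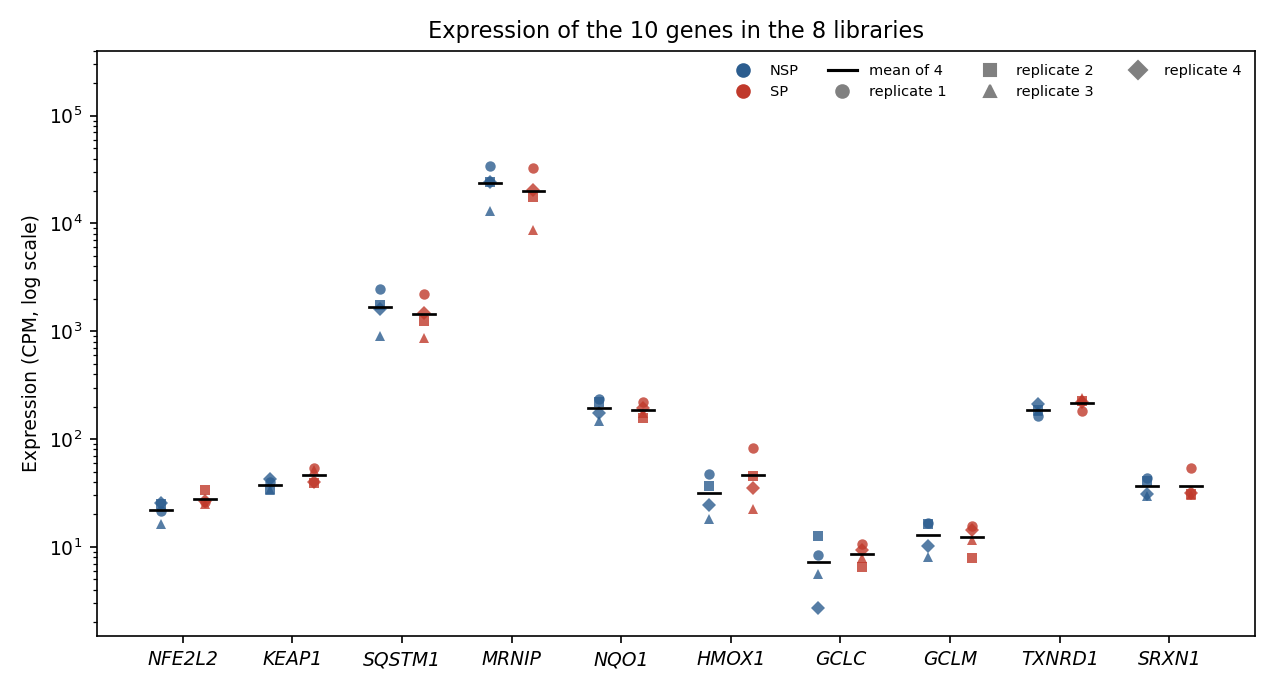
Expression of the 10 genes in CPM on a log scale, with 1 point per library (SP in red, NSP in blue, a marker shape for each replicate number) and a bar at the mean of 4. MRNIP lies above SQSTM1 in every library, and the SP and NSP points overlap for each gene.

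NFE2L2 (ENSG00000116044.11, chromosome 2, minus strand), which encodes NRF2, had 26.1, 33.5, 24.9 and 26.7 CPM in SP replicates 1 to 4 and 21.4, 25.1, 16.2 and 25.7 CPM in NSP replicates 1 to 4. The SP library lay above the NSP library at each number, although the highest NSP value exceeded the lowest SP value. The log2 fold change of SP over NSP was 0.32 (SE 0.22, adjusted p = 0.496 by edgeR). KEAP1 (ENSG00000079999.9, chromosome 19, minus strand), the sensor that keeps NRF2 low, had 53.6, 39.4, 52.0 and 39.7 CPM in SP cells and 40.1, 34.3, 33.7 and 42.7 CPM in NSP cells. SP exceeded NSP at 3 of 4 numbers, and the log2 fold change was 0.30 (SE 0.19, adjusted p = 0.465 by edgeR). The counts behind the NFE2L2 values were 26 to 52 per library.

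SQSTM1 had 2206, 1237, 866 and 1471 CPM in SP cells and 2484, 1745, 896 and 1601 CPM in NSP cells. MRNIP, whose product interacts with the MRN complex of DNA break repair, had 32913, 17776, 8607 and 20275 CPM in SP cells and 34014, 24380, 13112 and 24132 CPM in NSP cells. In both genes and both groups replicate 1 was the highest and replicate 3 the lowest, and the SP library lay below the NSP library at each number. The difference between the groups was smaller than the difference between replicates. The log2 fold change was -0.22 for SQSTM1 (SE 0.28, adjusted p = 0.769 by edgeR) and -0.27 for MRNIP (SE 0.33, adjusted p = 0.759 by edgeR). Without NSP replicate 1 the SQSTM1 value was 0.02, on the other side of 0. The MRNIP value ran from -0.62 without SP replicate 1 to -0.015 without SP replicate 3.

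NQO1 (ENSG00000181019.8, chromosome 16, minus strand), a quinone reductase often read as an NRF2 reporter, had 221, 156, 175 and 193 CPM in SP cells and 236, 219, 148 and 175 CPM in NSP cells. The log2 fold change was -0.07 (SE 0.17, 95% interval -0.43 to 0.30). HMOX1 (ENSG00000100292.12, chromosome 22, plus strand), which encodes heme oxygenase 1, the inducible enzyme that breaks heme down, had 81.9, 45.3, 22.3 and 35.3 CPM in SP cells and 47.4, 36.8, 18.1 and 24.4 CPM in NSP cells. Its SP library was the higher of the pair at each number, by 1.73-fold at number 1 and by 1.23- to 1.45-fold at the other numbers. HMOX1 had the largest log2 fold change of the 10 genes, 0.51, with an SE of 0.35 and an adjusted p of 0.505 by edgeR. It was 0.09 without SP replicate 1, below NFE2L2 (0.35) and TXNRD1 (0.29) in that fit, and up to 0.76 without NSP replicate 1. Its interval, -0.22 to 1.25, was the only one of the 10 that reached past 1 on the log2 scale in either direction. In this fit on group alone the intervals of all 10 included 0.

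GCLC (ENSG00000001084.6, chromosome 6, minus strand) and GCLM (ENSG00000023909.5, chromosome 1, minus strand) encode the catalytic and the modifier subunit of the enzyme that limits glutathione synthesis. GCLC had 10.6, 6.56, 7.96 and 9.37 CPM in SP cells and 8.34, 12.6, 5.62 and 2.71 CPM in NSP cells. GCLM had 15.5, 7.88, 11.7 and 14.4 CPM in SP cells and 16.7, 16.4, 8.12 and 10.2 CPM in NSP cells. At number 2 both subunits were lower in SP cells, and at numbers 3 and 4 both were higher. The log2 fold changes were 0.17 for GCLC (SE 0.38) and -0.09 for GCLM (SE 0.31). The GCLC values rest on 4 to 26 counts per library and the GCLM values on 12 to 34, and their 95% intervals ran from -0.64 to 0.98 for GCLC and from -0.74 to 0.56 for GCLM.

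TXNRD1 (ENSG00000198431.11, chromosome 12, plus strand), the cytosolic thioredoxin reductase, had 183, 226, 242 and 218 CPM in SP cells and 165, 188, 183 and 213 CPM in NSP cells. SP lay above NSP at each number, with a log2 fold change of 0.22 (SE 0.15, adjusted p = 0.507 by edgeR). It varied least among the libraries of a group, with 1.32-fold between the highest and the lowest SP library and 1.29-fold in NSP cells, apart from KEAP1 in NSP cells at 1.26-fold. SRXN1 (ENSG00000271303.1, chromosome 20, minus strand), which encodes sulfiredoxin and repairs overoxidized peroxiredoxins, had 54.3, 30.9, 30.2 and 31.7 CPM in SP cells and 43.8, 41.1, 29.4 and 31.2 CPM in NSP cells. Replicate 1 stood above the other SP libraries, and the group means were almost equal, with a log2 fold change of 0.00 (SE 0.23), which fell to -0.24 without SP replicate 1. The exact two-sided permutation test of each gene on log2(CPM + 1) gave p-values from 0.0857 for NFE2L2 to 0.971 for SRXN1, where 4 libraries against 4 cannot go below 0.0286.

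**Figure D2:**
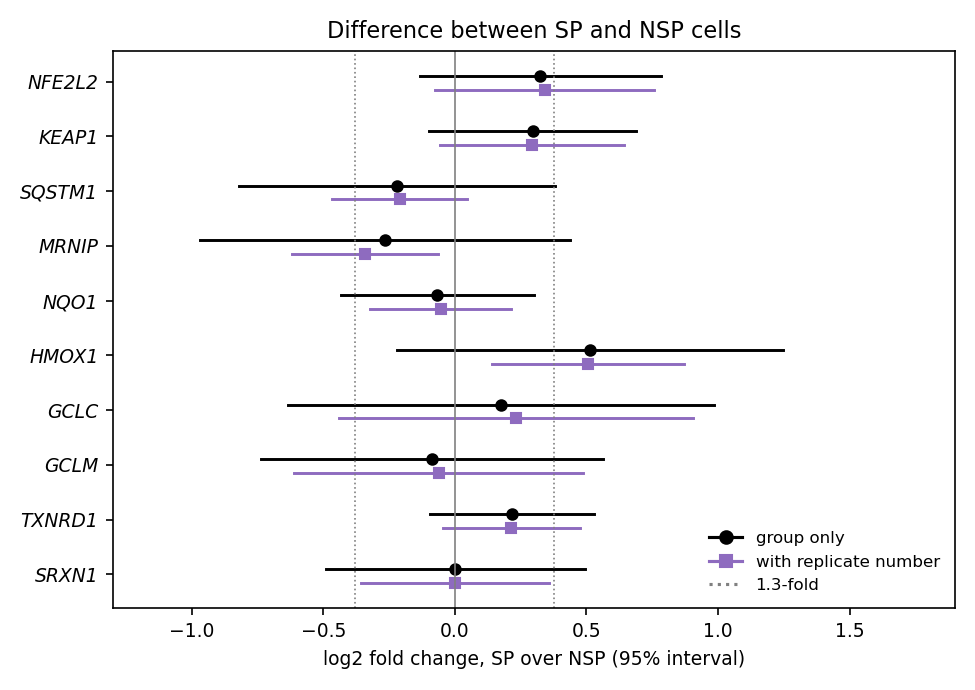
Log2 fold change of SP over NSP cells for the 10 genes, with 95% intervals, from the edgeR fit on group alone (black) and from the fit that also holds the replicate number (purple). Dotted lines mark a fold change of 1.3. Every black interval crosses 0, and the purple intervals of MRNIP and HMOX1 do not.

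The replicate number went with larger differences than the sort did in part of this set. MRNIP spanned 3.82-fold between the highest and the lowest SP library and 2.59-fold between those of NSP cells. SQSTM1 spanned 2.55- and 2.77-fold, and HMOX1 3.68- and 2.62-fold. A test of the replicate number in the fit with both terms, added after the data had been seen, gave an adjusted p under 0.05 for 3 of the 10 genes, against 11.5% of all genes tested. These were MRNIP (adjusted p = 3.02e-09), SQSTM1 (adjusted p = 3.48e-08) and HMOX1 (adjusted p = 2.15e-06). MRNIP and SQSTM1 have exons that cross and ordered the libraries alike, so they are not separate cases in this count or the next. For NFE2L2, KEAP1, GCLC, GCLM and TXNRD1 the adjusted p of the same test was 0.604 or more. MRNIP, SQSTM1, HMOX1 and SRXN1 were each highest in replicate 1 and lowest in replicate 3 in both groups, an order held by 2.33% of all genes tested. The labels do not say what a replicate number shares.

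With the replicate number in the fit, 5.89% of all genes tested were called higher in SP cells and 6.99% lower, and still none of the 10. HMOX1 came nearest, at a log2 fold change of 0.51 (adjusted p = 0.0530 by edgeR), followed by MRNIP at -0.34 (adjusted p = 0.0979 by edgeR). The unadjusted p of this edgeR fit was 0.00703 for HMOX1 and 0.0167 for MRNIP. Like the fit on group alone, it draws on the spread of other genes. An exact paired permutation test on 4 pairs cannot go below p = 0.125. SP exceeded NSP at all 4 numbers for NFE2L2, HMOX1 and TXNRD1, as it did for 14.9% of all genes tested. SP was below NSP at all 4 numbers for SQSTM1 and MRNIP, as for 15.1% of all genes tested. The exons of SQSTM1 and MRNIP cross, so these are not separate cases.

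**Figure D3:**
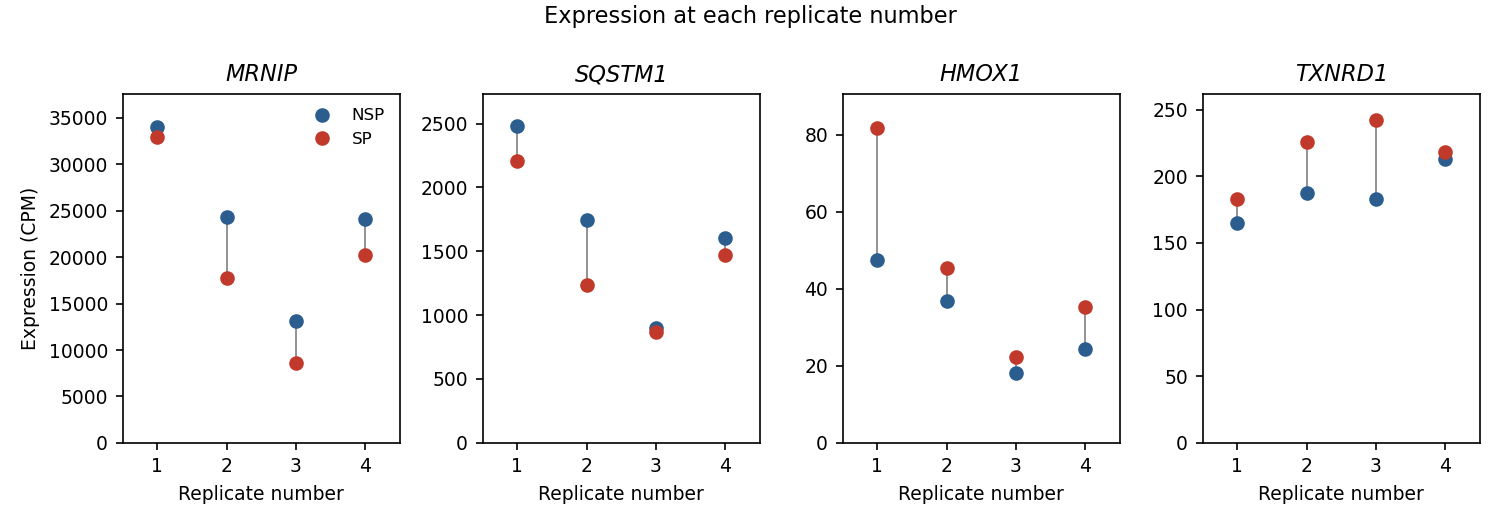
CPM of 4 genes at each replicate number, with SP in red and NSP in blue and a grey line joining the libraries of one number. MRNIP, SQSTM1 and HMOX1 are highest at number 1 and lowest at number 3 in both groups, whereas TXNRD1 is lowest at number 1.

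Per kb of exon, and with counts assigned to genes as deposited, the order of the levels over the 8 libraries was MRNIP at 2586 CPM per kb (SD 1049), SQSTM1 at 207 (SD 76.8), NQO1 at 64.1 (SD 10.9), TXNRD1 at 30.1 (SD 3.91), HMOX1 at 16.9 (SD 8.82), SRXN1 at 14.5 (SD 3.56), KEAP1 at 11.7 (SD 2.06), GCLM at 2.32 (SD 0.67), NFE2L2 at 1.67 (SD 0.33) and GCLC at 0.92 (SD 0.35). The ranges of MRNIP, SQSTM1 and NQO1 were separate from each other and from TXNRD1. The neighbours TXNRD1, HMOX1, SRXN1 and KEAP1 overlapped in turn, as did GCLM, NFE2L2 and GCLC. HMOX1 exceeded SRXN1 in 4 of the 8 libraries. The place of every gene in this order rests on the strand of the counting, which is described next. The order was not tested with the strands exchanged. MRNIP, SQSTM1, NQO1, NFE2L2 and GCLC also have exons of other genes across theirs. NRF2 is held down mainly through the stability of the protein, which RNA counts do not measure.

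MRNIP ranked 4 among all genes by its 290365 counts, 0.956% to 3.30% of a library, while SQSTM1, an abundant autophagy receptor, ranked 70 with 20857. The ratio of MRNIP to SQSTM1 counts was 14.9, 14.4, 9.94 and 13.8 in SP replicates 1 to 4 and 13.7, 14.0, 14.6 and 15.1 in NSP replicates 1 to 4. SP replicate 3 stood below the other 7 libraries. The log2 ratio was lower in SP cells by 0.131 (exact two-sided permutation p = 0.514, n = 4 per group), and the difference was 0.002 without SP replicate 3. Per kb of exon MRNIP had 12.4 times the counts of SQSTM1, with 8.84 to 13.4 times in single libraries.

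The strand setting of the counting is not given in the sources used here, and the same imbalance was found at other genes of the set. At NQO1 the lncRNA ENSG00000261602 lies on the other strand with all of its 575 bases inside NQO1 exons (chr16:69743777-69744486, GRCh37). It had 19013 counts against 2549 on NQO1, or 38.5 times the counts per kb (26.7 to 47.9 times in single libraries). At NFE2L2 the exons of HNRNPA3, which encodes an RNA-binding protein, cross 3509 bases, and those of the lncRNA ENSG00000222043 cross 190 bases. HNRNPA3 had 2.95 times and the lncRNA 44.8 times the counts per kb of NFE2L2. At GCLC, GCLC-AS1 had 38 counts in all, 2.22 times the counts per kb of GCLC. At 2 pairs the other gene had fewer: AGPS crosses 11 bases of NFE2L2 and had 0.451 times its counts per kb, and MGAT4B, an enzyme of glycan branching, crosses 105 bases of SQSTM1 at its other end and had 0.197 times its counts per kb.

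KEAP1, HMOX1, GCLM, TXNRD1 and SRXN1 have no exon of another gene across theirs on the other strand. The strand setting applies to every gene in the table, so their counts and fold changes depend on it as well. None of these values was computed with the strands exchanged. Over all 595 pairs of a lncRNA lying mostly inside the exons of a protein-coding gene, the lncRNA had more counts per kb in 88.2% (86.2% to 88.7% in single libraries). Without knowing the strand of the counting, counts of SQSTM1 and MRNIP, of NQO1 and its lncRNA, and of NFE2L2 and its neighbours cannot be assigned to one gene with certainty. Summing each gene with its neighbours of the other strand left the calls of the set at 0, while the log2 fold change moved to 0.51 for NFE2L2 (adjusted p = 0.0946 by edgeR) and to -0.17 for NQO1 (adjusted p = 0.700 by edgeR). All counts of the neighbours entered these sums and made up most of them. They were 1066 against 329 for NFE2L2 and 19013 against 2549 for NQO1.

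**Figure D4:**
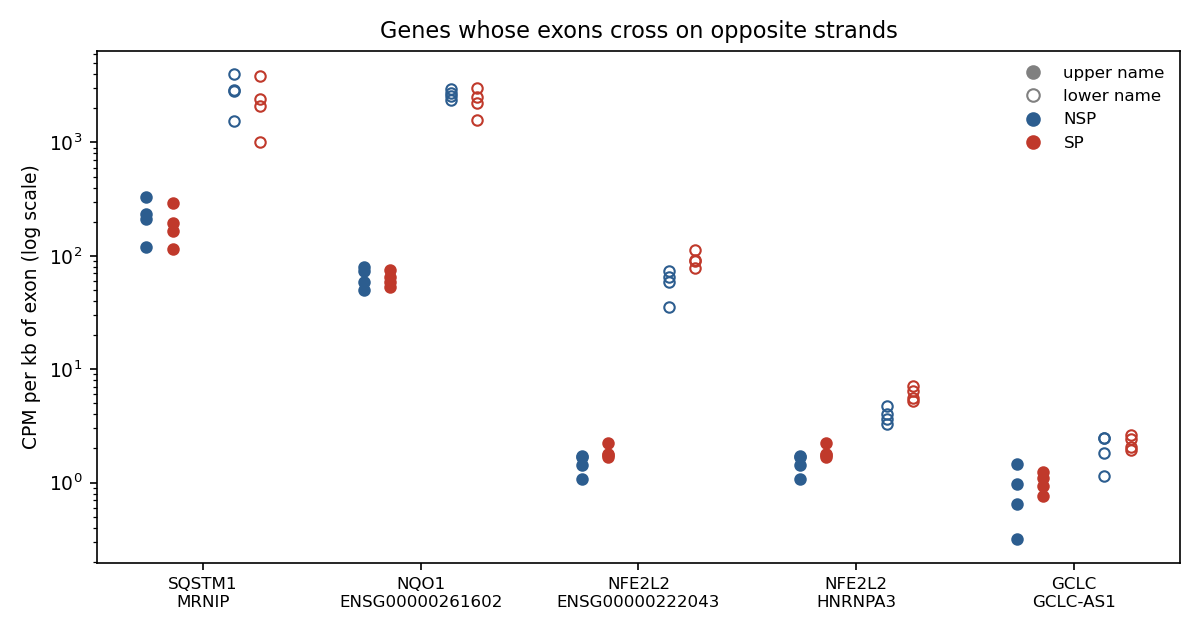
CPM per kb of exon on a log scale for genes of the set (filled, upper name) and the genes whose exons cross theirs on the other strand (open, lower name), with 1 point per library. MRNIP lies above SQSTM1 and the lncRNA ENSG00000261602 above NQO1 in all 8 libraries.

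The neighbours on the other strand were compared between SP and NSP cells by the same fit. The lncRNA across NQO1 had 1737, 1278, 904 and 1459 CPM in SP cells and 1712, 1561, 1372 and 1468 CPM in NSP cells, with a log2 fold change of -0.19 (adjusted p = 0.678 by edgeR). HNRNPA3 had 41.6, 36.8, 33.9 and 46.9 CPM in SP cells and 21.4, 26.1, 31.2 and 23.7 CPM in NSP cells. Its SP and NSP values did not overlap, and its log2 fold change was 0.63 (SE 0.20, adjusted p = 0.0958 by edgeR, and 0.0172 with the replicate number). The lncRNA ENSG00000222043 had 38.8, 55.8, 45.6 and 44.7 CPM in SP cells and 17.7, 32.4, 36.9 and 29.1 CPM in NSP cells. These ranges also did not overlap, and the log2 fold change was 0.68 (SE 0.22, adjusted p = 0.117 by edgeR, and 0.00448 with the replicate number). MGAT4B was at -0.42 (SE 0.19, adjusted p = 0.268 by edgeR, and 0.0239 with the replicate number). AGPS was at 0.00 (SE 0.27).

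The genes most like SQSTM1 over the 8 libraries, by Pearson's r of log2(CPM + 1), were STX4 (r = 0.98), MRNIP (r = 0.97) and PHGDH (r = 0.96). Those most like MRNIP were BEST1, WDR37 and CENPO, each with r = 0.97, and SQSTM1 ranked 6. The 8 points share 4 replicate numbers, and the values are a description. BEST1, which is known as a channel of the eye, had a mean of 21427 CPM in SP and 23418 CPM in NSP cells, and its exons cross those of the ferritin gene FTH1 on the other strand.

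The wider pathway was read from 10 lists holding 137 genes, of which 99 could be tested. In these lists 1 gene was called higher and 1 lower in SP cells, beside the 1.63% and 2.03% of all genes, and 12 had an unadjusted p under 0.05. The median log2 fold change was 0.08 over the listed genes, 0.09 over the 10 genes of the set and 0.01 over all genes tested. NFE2L3, a CNC relative of NRF2, was the gene called lower. It had 4.23, 3.28, 3.71 and 5.77 CPM in SP cells and 13.0, 14.0, 9.37 and 9.48 CPM in NSP cells, without overlap, and its log2 fold change was -1.45 (SE 0.32, adjusted p = 0.0200 by edgeR). These values rest on 5 to 8 counts in the SP and 14 to 29 in the NSP libraries. HNRNPA2B1, whose exons cross 1207 bases of NFE2L3 on the other strand, had 80.8 to 119 CPM in SP cells and 87.5 to 121 CPM in NSP cells (adjusted p = 0.903 by edgeR).

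ATF3, a stress-induced transcription factor, was the gene called higher, on the list of genes that sorting and stress can induce. It had 12.0, 14.4, 6.89 and 19.5 CPM in SP cells and 3.65, 3.87, 7.50 and 4.06 CPM in NSP cells. SP replicate 3 lay below NSP replicate 3, so the groups overlapped, and the log2 fold change was 1.45 (SE 0.37, adjusted p = 0.0423 by edgeR). The call of ATF3 was lost under 8 of 16 other settings, without SP replicate 1, 2 or 4 and without NSP replicate 1, 2 or 4 among them (adjusted p from 0.0659 to 0.135). The call of NFE2L3 was lost under 4 of 15, without SP replicate 2 or 3 and without NSP replicate 1 or 2 (adjusted p from 0.0528 to 0.0823).

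With the replicate number in the fit, 7 listed genes were called higher and 4 lower, beside 5.89% and 6.99% of all genes tested. The p-values of this fit draw on the spread of other genes, and 4 pairs alone could not give values this low. The small MAF genes MAFG (log2 fold change 0.61, adjusted p = 0.0134 by edgeR) and MAFK (0.50, adjusted p = 0.0300), whose proteins pair with NRF2 on DNA, were higher in SP cells. So were the oxidoreductase genes NQO2 (0.59, adjusted p = 0.0188) and AKR1B1 (0.44, adjusted p = 0.00866), and ATF3, IER3 and DUSP1 of the sort and stress list. The genes called lower were NFE2L3, GPX4 (-0.49, adjusted p = 0.00675), which reduces lipid peroxides, GSTP1 (-0.82, adjusted p = 0.000122), a glutathione transferase, and SLC7A11 (-1.42, adjusted p = 0.00116), the cystine carrier that supplies glutathione synthesis. Apart from ATF3 and NFE2L3, none of these was called by the edgeR fit on group alone. GSTP1 was also called on group alone by DESeq2 (adjusted p = 0.0434), by voom (adjusted p = 0.0353) and by edgeR without a filter (adjusted p = 0.00295). Genes on the other strand had more counts than MAFK (TMEM184A, 6242 against 650), MAFG (ENSG00000264769, 1067 against 496) and IER3 (IER3-AS1, 17646 against 2031). With the replicate number in the edgeR fit TMEM184A (0.57, adjusted p = 0.00101) and ENSG00000264769 (0.45, adjusted p = 0.0303) were also called higher, and IER3-AS1 was at 0.35 (adjusted p = 0.0836). Reads from the bases where each of these pairs crosses cannot be told apart without the strand.

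SLC7A11 had 2.82, 3.94, 3.18 and 10.1 CPM in SP cells and 16.7, 16.0, 6.25 and 14.2 CPM in NSP cells, and the groups overlapped. On group alone its log2 fold change was -1.44 (SE 0.42, adjusted p = 0.0702 by edgeR). The antisense gene SLC7A11-AS1, whose exons cross 865 bases of SLC7A11 and which was looked at after these values were seen, had 2281 counts against 126. It had 96.0, 176, 53.0 and 95.2 CPM in SP cells and 219, 256, 208 and 246 CPM in NSP cells. Every SP library lay below every NSP library, and SLC7A11-AS1 was called lower at a log2 fold change of -1.15 (SE 0.26, adjusted p = 0.0200 by edgeR). That call was lost without SP replicate 4 (adjusted p = 0.0540) and without NSP replicate 2 (adjusted p = 0.0679). As at SQSTM1 and NQO1, reads from the bases where the 2 genes cross cannot be told apart without the strand of the counting.

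**Figure D5:**
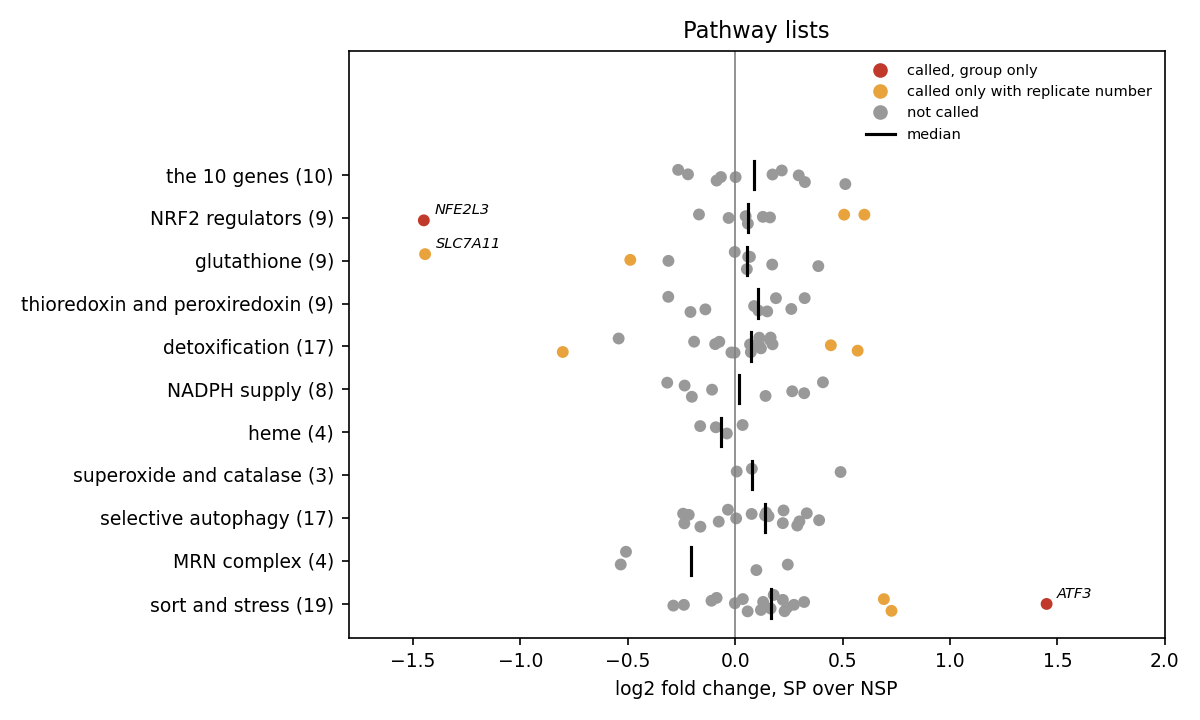
Log2 fold change of SP over NSP cells for the 10 genes and for the tested genes of each pathway list (number in brackets), from the fit on group alone, with a bar at each list's median. Red points are called (NFE2L3 lower, ATF3 higher), orange points only with the replicate number in the fit, and the medians lie between -0.20 and 0.17.

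The list of selective autophagy, to which p62 belongs by function, had 17 tested genes with none called by either fit and log2 fold changes from -0.24 to 0.39. The thioredoxin and peroxiredoxin list (9 tested, -0.31 to 0.32), the NADPH supply list (8 tested, -0.32 to 0.41), the heme list (4 tested, -0.16 to 0.03), the superoxide and catalase list (3 tested, 0.01 to 0.49) and the MRN complex list (4 tested, -0.53 to 0.24) also had none called by either fit. None of these lists held a gene with an unadjusted p under 0.05. The glutathione list (9 tested) had 2 such genes, the NRF2 regulators (9 tested) and the sort and stress list (19 tested) had 3 each, and the detoxification list (17 tested) had 4.

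Some markers of cell state differed between the groups beside these genes. KRT7 was lower in SP cells by edgeR (log2 fold change -1.35, adjusted p = 0.00342), as was FN1 (-1.25, adjusted p = 0.000863), and COL1A2 (2.09, adjusted p = 0.00849) and PDGFRB (1.42, adjusted p = 0.0164) were higher. Summed over its list, the epithelial level was 3365 to 4694 CPM in SP and 4586 to 6285 CPM in NSP libraries, with 14 of 19 markers counted. The mesenchymal level was 654 to 1044 CPM in SP and 827 to 1136 CPM in NSP libraries, with 11 of 11 counted. The leukocyte level was 41.9 to 96.0 CPM in SP and 20.0 to 58.9 CPM in NSP libraries, with 5 of 8 counted, mostly CD14. Exons of KRT87P and KRT7-AS cross those of KRT7 on the other strand, with 29224 counts against 6229 on KRT7. Those of VIM-AS1 and ENSG00000234961 cross VIM, with 91643 counts against 5749, and KRT8 and KRT18 cross each other. Reads from the bases where these genes cross cannot be told apart without the strand, which bears on the KRT7 call and the summed levels. FN1, COL1A2 and PDGFRB have no such exons. The part of the markers in the values of the antioxidant genes was not tested.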

How the data were processed

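The data are single-end 50-bp mRNA libraries of sorted J82 cells, 4 SP and 4 NSP. The authors aligned the reads to hg19 with STAR and counted them on gencode version 19 genes with featureCounts, and deposited raw counts per gene; tool versions are not given in the sources used here. Symbols, exons and positions came from GENCODE lifted to GRCh37, joined by unversioned identifier (55538 of 57820 genes, 96.05%), so exon lengths are those of a later annotation. Promoter sequences are from RefSeq.

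SP and NSP were compared on the deposited counts by edgeR's quasi-likelihood test (version 4.0.16, R 4.3.3, TMM, group only), keeping genes that passed filterByExpr at 10 counts and a total of 15, with Benjamini-Hochberg adjustment over 9309 genes, and called at an adjusted p under 0.05 and a fold change over 1.3. The scripts were tested on simulated data. The alternatives were DESeq2 1.42.0 and its size factors, upper-quartile normalization, limma 3.58.1 voom with quality weights, other filters, genes without opposite-strand exons, summed opposite-strand genes, each library left out, and the replicate number as a block. Deviations of same-numbered SP and NSP libraries correlated at 0.38, 0.203, 0.322 and 0.321. Since each exceeded 0.1, the same number was treated as a pair in the fit with the replicate number. Libraries of unlike number correlated at -0.276 (SP 1 with NSP 3) to 0.124 (SP 2 with NSP 3), and this last value also exceeded 0.1. The main fit and the permutation tests given in the results compared the groups without pairing. Replicates differed by more than sampling noise (chi-square per degree of freedom 4.87 to 10.96), so none were merged.

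The 10 genes and all lists were chosen with earlier results of these data known. Of the 137 listed genes 135 were matched. Named are the 10 genes, listed genes called by the main fit, genes with 10 or more counts across their exons on the other strand, and the 3 genes most like SQSTM1 and MRNIP. Listed genes called with the replicate number, genes across the exons of these, and the markers were named after their values were seen. Exact permutation tests used scipy 1.17.1.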

Additional observations from a re-analysis of the deposited data

Results flagged for a closer look

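A library was looked at again where its gap to the nearest of the others in its group, divided by the range of the group, exceeded Dixon's 95% critical value for 4 samples. Of 24 groups examined (the 10 genes with ATF3 and NFE2L3, in SP and in NSP cells) 2 had such a library, and chance gives about 1 in 20. SRXN1 in SP cells was one, with replicate 1 at 54.3 CPM above 30.2 to 31.7 CPM in the other libraries (gap over range 0.938). ATF3 in NSP cells was the other, with replicate 3 at 7.50 CPM above 3.65 to 4.06 CPM (gap over range 0.892).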

How the results depend on the processing

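The count of the 10 genes called stayed at 0 in each direction under every alternative that was run, leaving out each library included, and the lowest adjusted p was 0.0530 (HMOX1 with the replicate block). The block changed no call among the 10. GCLC had too few counts for the filter of 10 in every library, and the 5 genes with opposite-strand exons have no value where such genes were left out. Exact permutation tests gave 0 genes under 0.05 with each pseudocount. Of 84 log2 fold changes of the 10 genes under other settings 77 kept their direction, and 7 reversed, all of SRXN1. SRXN1 was at -0.0073 with DESeq2's size factors, -0.015 with DESeq2, -0.0165 with voom, -0.0191 without a filter, -0.0056 with 10 counts in every library, -0.0004 with the replicate block, and -0.0524 with opposite-strand genes left out. Leaving out single libraries reversed 10 of 80 values, in 5 genes. The ranges were -0.498 to 0.0227 for SQSTM1, -0.1791 to 0.0336 for NQO1, -0.0759 to 0.5755 for GCLC, -0.25 to 0.0752 for GCLM and -0.2409 to 0.0956 for SRXN1. Without a reversal they were -0.6209 to -0.015 for MRNIP, 0.0863 to 0.7631 for HMOX1 and 0.2052 to 0.3929 for NFE2L2. The log2 ratio of MRNIP to SQSTM1 ran from -0.1934 to 0.002, and it reversed without SP replicate 3.

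Genes called higher and lower over the whole table numbered 303 and 381 without a filter, 548 and 651 with the replicate block, and 59 and 62 with opposite-strand genes left out, where fewer genes were tested. Leaving out single libraries gave 69 to 165 higher and 89 to 181 lower, with the lowest counts without NSP replicate 2 (69 and 89), then SP replicate 2 (91 and 110) and, for higher calls, NSP replicate 1 (93). Listed pathway genes called higher and lower numbered 0 and 2 with DESeq2, 2 and 2 with voom, 2 and 3 without a filter, 0 and 0 with 10 counts in every library, 7 and 4 with the replicate block, and 0 and 0 with opposite-strand genes left out. Leaving out single libraries gave 0 to 1 higher and 0 to 3 lower. The cause of these differences was not tested. Chosen after their values were seen, GSTP1 was called in 6 of 17 other settings, SLC7A11 in 4 of 15 and IER3 in 3 of 16. GCLC, GCLM, NFE2L3, ATF3 and SLC7A11 rest on low counts.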
